A study of Mus musculus with 6 samples.

Results

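Interferon regulatory factors (IRFs) are transcription factors that share a DNA-binding domain marked by repeated tryptophans. The 8 genes described here are Irf1, Irf2, Irf3, Irf4, Irf5, Irf7, Irf8 and Irf9, taken by gene symbol from a deposited table of 19390 genes. All 8 had enough counts to be tested, as did 12810 genes in all. RNA sequencing measured their transcripts in γδ T cells, which carry a T cell receptor of γ and δ chains and were obtained from mouse spleens at 6 weeks of age by flow sorting. Mice of genotype USF3-f/f with CD2-cre, whose Usf3 alleles are floxed, were the source of the 3 KO-labelled libraries, and USF3-f/f mice without CD2-cre that of the 3 WT-labelled libraries. CD2-cre is a transgene in which regulatory sequence of the lymphoid gene Cd2 drives Cre recombinase, and only the KO-labelled mice carried it, so the transgene and the deletion cannot be told apart. The sources used here give neither the strain and sex nor the floxed exons, and do not say whether cells were pooled or stimulated. Nothing says that the 3 libraries of a label came from separate animals, so p-values measure only the spread between these libraries.

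IRFs bind the interferon-stimulated response element, a repeat of GAAA, and related sites. Interferon receptors signal through JAK kinases to STAT proteins. IRF9 joins STAT proteins in the complex that carries the type I interferon signal, and interferon-γ induces Irf1. IRF3, IRF5 and IRF7 are held in the cytoplasm until kinases below sensors of nucleic acids phosphorylate them, so their messenger level does not report their activity. In T cells IRF4 is induced in proportion to the strength of antigen receptor signals, and IRF8, best known from myeloid and B cells, is also expressed in some activated T cells.

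Library totals ran from 34644862 to 35806402 counts. Usf3, the targeted gene, had 2532, 2360 and 2348 counts in KO-labelled libraries, against 2499, 2527 and 2593 in WT-labelled ones. Replicate 1 of the KO-labelled set fell inside the range of the WT-labelled set. The log2 fold change of Usf3 was -0.076 ± 0.043 (SE; edgeR quasi-likelihood test, adjusted p = 0.261) and was not called. With the floxed exons unknown, whole-gene counts are no check of genotype, so libraries are named by label throughout. The T cell genes Cd3d, Cd3e, Cd3g and Thy1 were abundant, with at least 9161 counts in every KO-labelled and at least 9912 in every WT-labelled library. Of 8 pan T cell markers, Cd3d, Cd3e, Cd3g and Cd2 were called lower, at log2 fold changes of -0.12, -0.076, -0.17 and -0.095, and Cd5 higher at 0.45 (edgeR adjusted p from 4.02e-05 to 0.0462). The 8 markers summed to between 3395 and 3504 CPM in KO-labelled and between 3582 and 3605 CPM in WT-labelled libraries. Of all tested genes, 10.1% were called lower and 7.23% higher. The γδ receptor genes Trdc, Trgc1, Trgc2, Trgc4 and Trdv4 had no row in the table and are not analysed here.

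Irf1, Irf4, Irf7 and Irf9 were lower in KO-labelled cells, and no member was called higher. The falls were moderate, to between 0.694 and 0.797 of the WT-labelled level. Irf2, Irf3, Irf5 and Irf8 did not pass the test. The 4 called members of 8 stand beside 17.3% of all tested genes called in either direction. The 4 lower ones stand beside 10.1% of all tested genes called lower, and the 0 higher members beside 7.23% called higher (a call is an edgeR adjusted p under 0.05 over all 12810 genes). At an unadjusted p under 0.05 edgeR had 0 higher members too, and DESeq2 called 0 higher. The labels did not overlap in 5 members, beside 32.1% of all tested genes. The KO-labelled libraries lay wholly below the WT-labelled ones in 4 members, where 16.7% of all tested genes did so, and wholly above in 1, where 15.5% did so. The median log2 fold change of the 8 members was -0.23, beside 0.0014 over all tested genes. In bulk RNA, fewer cells of a type and less RNA per cell cannot be told apart.

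**Figure D1:**
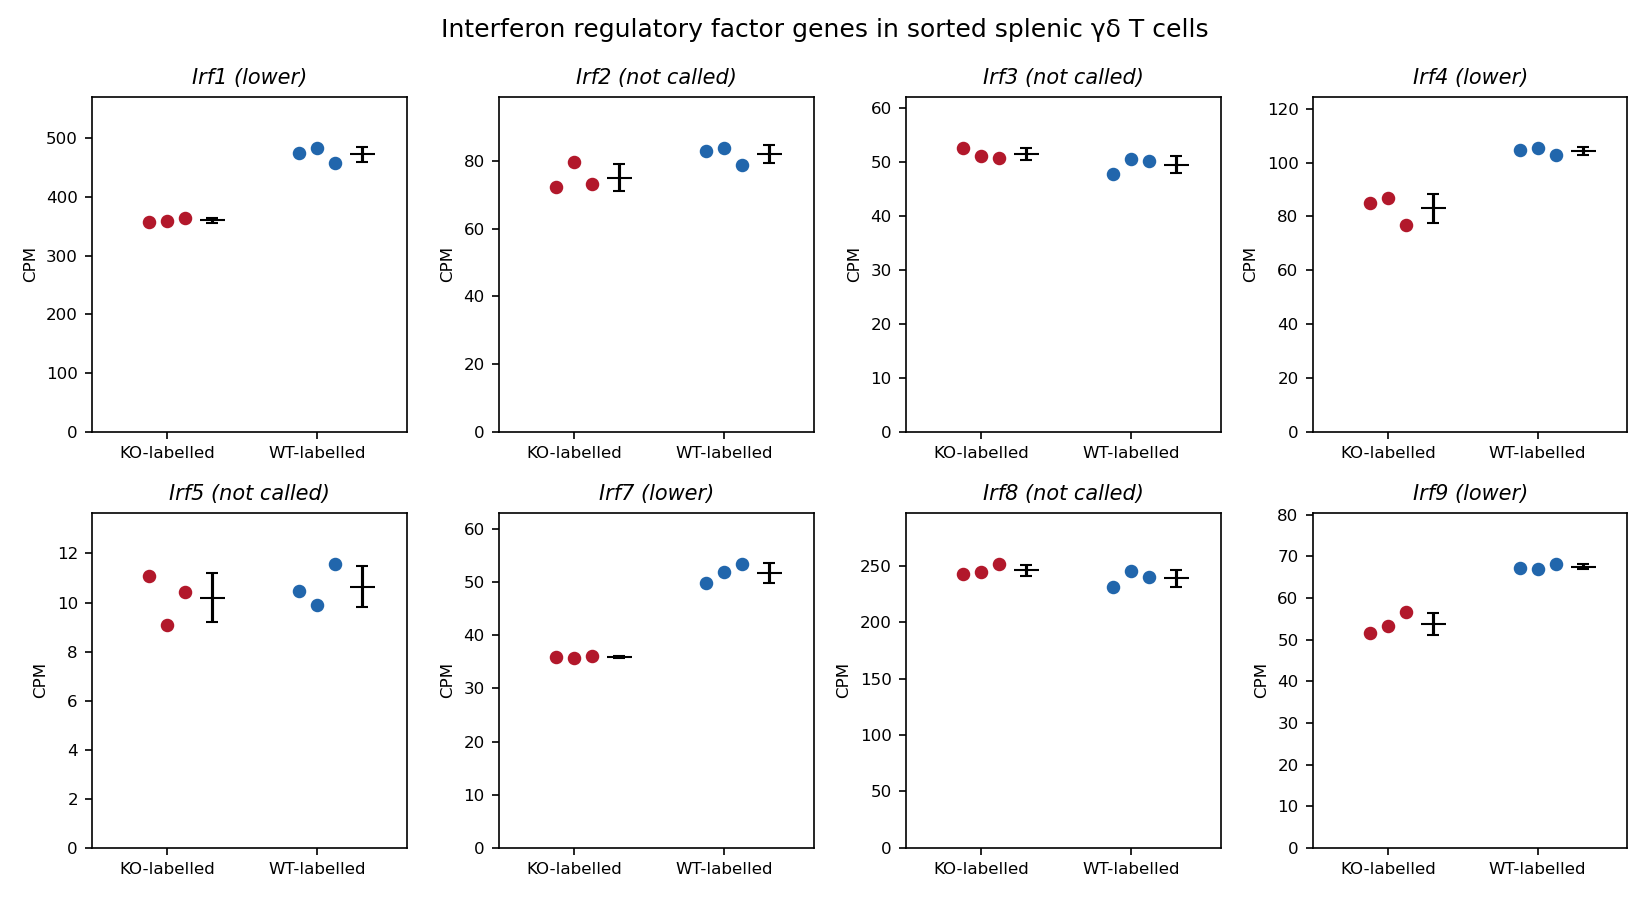
Each panel shows 1 member, with CPM (counts scaled by TMM library size) on an axis from 0, 1 point per library, KO-labelled at left and WT-labelled at right, and the mean with its SD (n = 3 each) beside the points. The KO-labelled points of Irf1, Irf4, Irf7 and Irf9 lie wholly below the WT-labelled points, and those of Irf2, Irf5 and Irf8 overlap them.

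Irf7, the gene of the factor that amplifies type I interferon production, showed the largest fall of the 8 members. Its level was 36.0, 35.6 and 36.1 CPM in KO-labelled libraries, against 49.8, 51.9 and 53.4 CPM in WT-labelled ones. The groups did not overlap, and the KO-labelled values lay within 1 CPM of each other. The log2 fold change was -0.53 ± 0.048 (SE; 95% interval -0.63 to -0.43; edgeR adjusted p = 2.07e-08), a fold of 0.694. That is a larger absolute change than in 91.7% of all tested genes.

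Irf1, the gene that interferon-γ induces and whose product drives antigen presentation genes, was the most abundant member. It stood at 356.6, 359.1 and 364.5 CPM in KO-labelled libraries, against 474.5, 484.1 and 458.7 CPM in WT-labelled ones. Every KO-labelled library was low and the spread within each label was small beside the gap. Irf1 had a log2 fold change of -0.39 ± 0.025 (SE; 95% interval -0.44 to -0.34; edgeR adjusted p = 5.73e-11), a fold of 0.762.

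Irf9, the DNA-binding subunit of the type I interferon complex, had 51.5, 53.3 and 56.6 CPM in KO-labelled libraries, against 67.3, 67.0 and 68.2 CPM in WT-labelled ones. The groups did not overlap. Irf9 had a log2 fold change of -0.33 ± 0.044 (SE; 95% interval -0.42 to -0.24; edgeR adjusted p = 7.93e-06), a fold of 0.797.

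Irf4, the member tied to antigen receptor signals, had 85.2, 87.0 and 77.0 CPM in KO-labelled libraries, against 104.7, 105.6 and 102.7 CPM in WT-labelled ones. The KO-labelled libraries were all lower, with replicate 3 the lowest. Irf4 had a log2 fold change of -0.33 ± 0.042 (SE; 95% interval -0.42 to -0.24; edgeR adjusted p = 3.79e-06), a fold of 0.796.

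Irf2, whose product competes with IRF1 for the same sites, lay at the threshold. Its level was 72.4, 79.9 and 73.2 CPM in KO-labelled libraries, against 83.1, 84.0 and 79.0 CPM in WT-labelled ones. The value of KO replicate 2 was inside the WT-labelled range and the other KO-labelled values were below it. The log2 fold change was -0.13 ± 0.044 (SE; 95% interval -0.22 to -0.035; edgeR adjusted p = 0.05003). It was called under 6 of 17 alternatives, among them the fit without KO replicate 2, at a log2 fold change of -0.17 (edgeR adjusted p = 0.00554), and that without WT replicate 3, at -0.15 (edgeR adjusted p = 0.0499). Over the 17 alternatives the adjusted p ran from 0.00554 to 0.225.

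Irf3, the constitutive factor that starts interferon production, had 52.6, 51.1 and 50.6 CPM in KO-labelled libraries, against 47.7, 50.6 and 50.1 CPM in WT-labelled ones. The KO-labelled values lay just above the WT-labelled ones, and the gap was smaller than the spread within either label. The log2 fold change of 0.058 had a 95% interval of -0.037 to 0.15 (edgeR adjusted p = 0.450). Irf8 had 242.5, 244.4 and 251.7 CPM in KO-labelled libraries, against 231.1, 245.6 and 239.8 CPM in WT-labelled ones, and the groups overlapped. Its log2 fold change of 0.044 had a 95% interval of -0.016 to 0.10 (edgeR adjusted p = 0.351).

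Irf5, a factor used by toll-like receptors through the adaptor MyD88, was the least abundant member. It had 389, 326 and 363 counts in KO-labelled libraries, against 372, 345 and 407 in WT-labelled ones. The ranges overlapped, with KO replicate 2 lowest and WT replicate 3 highest of the 6 libraries. Its log2 fold change of -0.062 had a 95% interval of -0.27 to 0.15 (edgeR adjusted p = 0.748), the widest of the 8. From counting error alone, the coefficient of variation at the WT-labelled level was 5.17% for Irf5 and 0.776% for Irf1. The log2 fold changes of Irf1, Irf4, Irf7 and Irf9 lie outside the interval of Irf5, but the intervals of Irf4 and Irf9 overlap it. Whether Irf5 differs from those members was not tested.

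**Figure D2:**
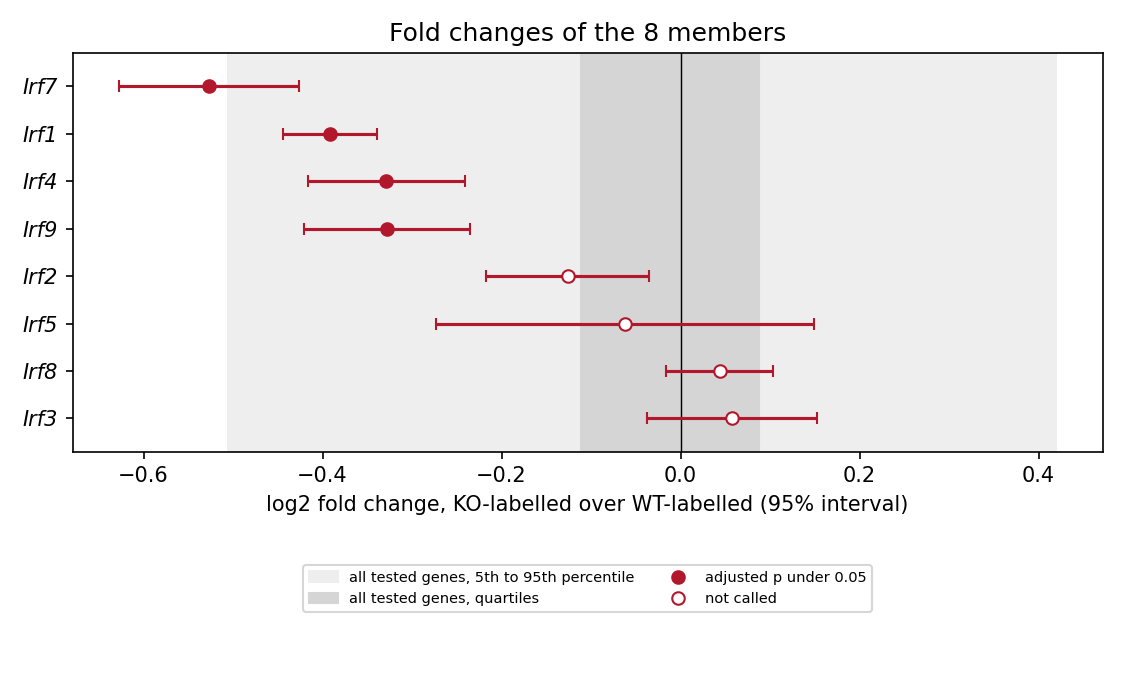
The points are the log2 fold changes of the 8 members, KO-labelled over WT-labelled, with their 95% intervals, filled where the edgeR adjusted p was under 0.05. The grey bands hold the middle of all tested genes, with the 5th and 95th percentiles at -0.51 and 0.42, and Irf7 at -0.53 lies beyond the lower band.

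Levels between genes were compared per kilobase, with the deposited FPKM, in which counts are divided by gene length and library total. In KO-labelled libraries Irf1 led with 107.6 ± 1.21 FPKM and Irf8 followed with 71.9 ± 1.43 (SD, n = 3 each). Irf3 at 20.4 ± 0.449, Irf9 at 20.1 ± 0.956, Irf7 at 18.6 ± 0.170 and Irf4 at 17.4 ± 1.10 FPKM came next in KO-labelled libraries, and only Irf3 and Irf9 overlapped among these neighbours. In WT-labelled libraries Irf1 had 140.2 ± 4.07 and Irf8 69.3 ± 2.01 FPKM (SD, n = 3 each). There Irf7 at 26.6 ± 0.854, Irf9 at 25.03 ± 0.186, Irf4 at 21.7 ± 0.354 and Irf3 at 19.5 ± 0.563 FPKM followed, with no overlap between neighbours. On the deposited lengths Irf3 thus stood at rank 3 in KO-labelled and at rank 6 in WT-labelled libraries. Irf2 and Irf5 closed the order under both labels, at 6.02 and 1.36 FPKM in KO-labelled libraries and 6.53 and 1.41 FPKM in WT-labelled ones.

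The order in the middle depended on the gene length used. The deposited FPKM imply lengths of 12519 bp for Irf2 and 7512 bp for Irf5, while the union of exons in the GENCODE M21 annotation (build GRCm38) holds 7396 bp and 2905 bp. For Irf7, Irf8 and Irf9 the deposited lengths are the shorter ones, at 1934, 3435 and 2688 bp against 3776, 7055 and 5386 bp. Per kilobase of that union, a scale chosen after the data were seen, Irf1, Irf8 and Irf5 kept their places under both labels. Irf4 came next after Irf8. Irf3 then stood at rank 4 under both labels, so its shift of rank between labels was not kept on this scale. Fold changes of a gene do not depend on its length.

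**Figure D3:**
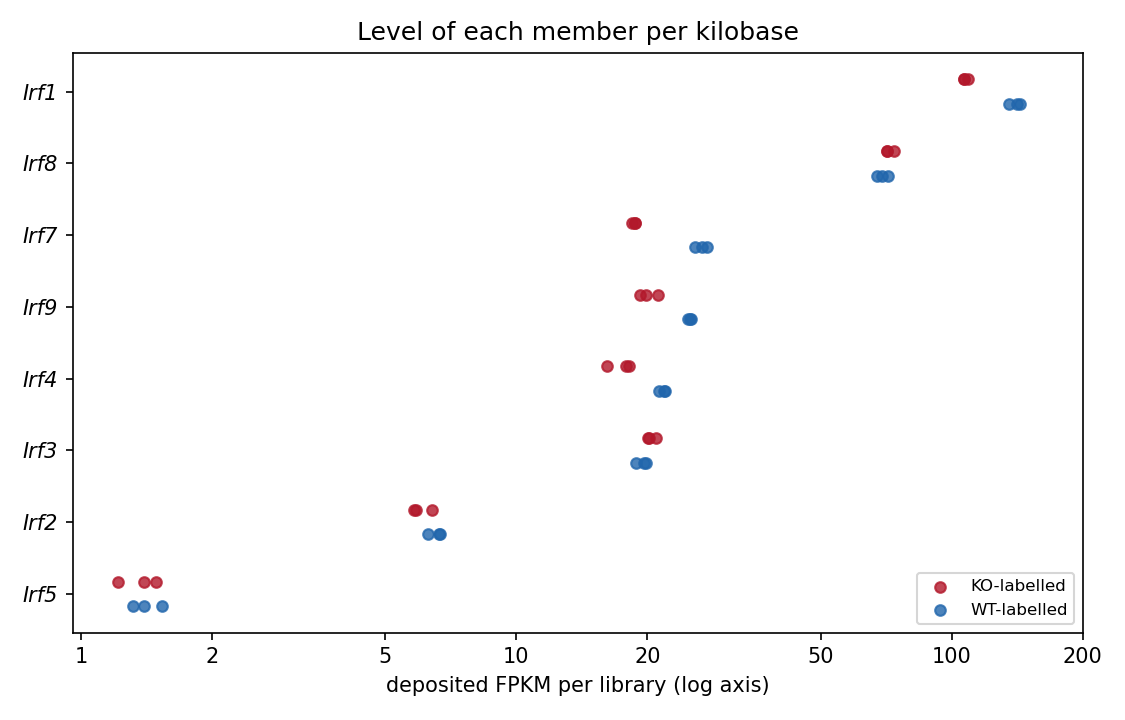
The horizontal axis is the deposited FPKM on a log scale, with 1 point per library, KO-labelled above WT-labelled for each member, and members ordered by their WT-labelled mean. Irf1 and Irf8 stand apart at the top, 4 members lie between 16.1 and 27.4 FPKM, and Irf2 and Irf5 lie lowest.

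The family's make-up shifted with these falls. The summed FPKM of the 8 members was 261.8, 262.4 and 265.9 in KO-labelled libraries, against 307.9, 316.4 and 306.5 in WT-labelled ones. Irf1 made up 40.8% ± 0.119 of that sum in KO-labelled and 45.2% ± 0.818 in WT-labelled libraries (SD, n = 3 each). Irf8 made up 27.3% ± 0.317 in KO-labelled and 22.3% ± 0.432 in WT-labelled libraries, without a called change of its own. The sum and the shares are on the FPKM scale and depend on the gene lengths used.

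Ratios between members with linked roles were compared within each library, a measure that does not depend on library scaling. The size of a ratio, though not its fold change between labels, depends on the gene lengths used. The ratio of Irf7 to Irf3, the induced over the constitutive factor of interferon production, was 0.895, 0.912 and 0.933 in KO-labelled libraries, against 1.37, 1.34 and 1.39 in WT-labelled ones. Irf7 was thus below Irf3 in every KO-labelled library and above it in every WT-labelled one on the FPKM scale, an order that depends on the gene lengths. The ratio of Irf4 to Irf8, a pair of close relatives that share partners, was 0.252, 0.255 and 0.219 in KO-labelled libraries and 0.325, 0.308 and 0.307 in WT-labelled ones. The ratio of Irf1 to its competitor Irf2 was 18.4, 16.8 and 18.6 in KO-labelled libraries and 21.3, 21.5 and 21.6 in WT-labelled ones. In these 3 pairs the KO-labelled ratios lay wholly below. A two-sided exact permutation test gave p = 0.1 for each, the smallest that 3 libraries against 3 allow (Benjamini-Hochberg adjusted p = 0.133 over 4 pairs). Each pair sets a member called lower over a member not called. The lower ratios therefore follow from those calls and are no further evidence of a change.

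The ratio of Irf9 to its partner Stat2 was 1.48, 1.51 and 1.599 in KO-labelled libraries and 1.62, 1.56 and 1.62 in WT-labelled ones, and the groups overlapped (exact permutation p = 0.2, adjusted p = 0.2 over 4 pairs). Stat2 itself changed by -0.26 ± 0.041 on the log2 scale (SE; edgeR adjusted p = 4.28e-05).

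The promoters of the members, 250 bases before and 50 after each RefSeq start site on build GRCm38.p6, were searched on both strands for the letters of the sites that interferon signals and USF-like proteins are known to use. The interferon-γ-activated site (GAS, TTCNNNGAA), which STAT dimers bind, was present in windows of Irf1, Irf2 and Irf8, and in 8.30% of all 32851 windows of that length. The core of the interferon-stimulated response element (GAAA-NN-GAAA) was present in Irf2 alone among the members, and in 3.44% of all windows. The E-box CACGTG, bound by USF proteins, was in none of the 11 windows of the 8 members, and in 7.15% of all windows. The motifs do not overlap each other in these windows. The stretches around the matches are shown because they set a member that fell, a member at the threshold and a member that did not pass side by side, on the plus strand, with matches in capitals.
Irf1, chr11:53769884-53769972: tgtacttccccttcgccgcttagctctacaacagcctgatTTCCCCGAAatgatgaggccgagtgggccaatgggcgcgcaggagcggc
Irf2, chr8:46739495-46739569: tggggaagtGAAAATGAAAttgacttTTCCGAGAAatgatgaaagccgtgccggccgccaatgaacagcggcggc
Irf8, chr8:120736147-120736253: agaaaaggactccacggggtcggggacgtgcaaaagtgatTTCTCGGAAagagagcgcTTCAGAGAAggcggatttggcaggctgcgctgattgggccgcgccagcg
Counted from the start site, the GAS match of Irf1 begins at position -90, that of Irf2 at -224 and those of Irf8 at -171 and -153, while the response element match of Irf2 begins at -241. Of the members that fell, Irf4, Irf7 and Irf9 held none of these letters in their windows, which says nothing of sites elsewhere or of the factors. A match of letters is not a measured binding site.

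Other genes of the pathway were counted in lists by role. Of 22 tested sensors, adaptors and kinases that lead to IRF activation, 4 were lower and 0 higher, beside 10.1% and 7.23% of all tested genes, and the median log2 fold change was -0.061. The kinase genes Tbk1 and Ikbke, whose products phosphorylate IRF3 and IRF7, did not pass, at -0.035 and 0.11 (edgeR adjusted p = 0.613 and 0.135). The lower ones were Irak2, a kinase gene of toll-like receptor signalling, at -0.54 ± 0.075, the RNA sensor genes Dhx58 at -0.45 ± 0.078 and Ifih1 at -0.37 ± 0.086, and Sting1, the adaptor of DNA sensing, at -0.13 ± 0.034 (log2 fold change, SE). Their edgeR adjusted p ran from 1.28e-05 to 0.00795.

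Of 17 interferon receptor, JAK and STAT genes and their brakes, 12 were lower and 2 higher, beside 10.1% and 7.23% of all tested genes. The median log2 fold change of the list was -0.21. Ifngr1, the ligand-binding chain of the interferon-γ receptor, stood at 368.4 ± 5.11 CPM in KO-labelled and 558.5 ± 5.78 CPM in WT-labelled libraries (SD, n = 3 each), a log2 fold change of -0.60 ± 0.023 (SE). Usp18, a feedback inhibitor gene of type I interferon signalling, changed by -1.22 ± 0.085 and the phosphatase gene Ptpn6 (SHP-1) by 0.22 ± 0.027. Adjusted p-values by edgeR were 8.96e-15 to 1.42e-06 for these 3 genes. Jak1 and Tyk2 did not pass, at 0.052 and -0.0099 (adjusted p = 0.108 and 0.911).

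Partners and corepressors of IRFs moved both ways. Of 23 tested, 4 were lower (17.4%) and 6 higher (26.1%), beside 10.1% and 7.23% of all tested genes. The median log2 fold change was 0.027. Batf3, a partner of IRF4 and IRF8, stood at 4.24 ± 0.246 CPM in KO-labelled and 8.06 ± 0.359 CPM in WT-labelled libraries (SD, n = 3 each; log2 fold change -0.93 ± 0.13, SE). Junb, which pairs with BATF proteins at sites shared with IRF4, changed by -0.24 ± 0.031 and Batf by -0.18 ± 0.062. On the higher side were Ets1 at 0.30 ± 0.024, a factor gene of lymphocytes, and Peli1 at 0.35 ± 0.035, a ubiquitin ligase gene. For these 5 genes edgeR gave adjusted p-values between 2.10e-09 (Ets1) and 0.0496 (Batf). The corepressor gene Irf2bpl was higher at 0.15 (adjusted p = 0.0334), while Irf2bp1 and Irf2bp2, which code for proteins that bind IRF2, did not pass, at -0.067 and 0.085 (adjusted p = 0.595 and 0.257). Batf, Irf2bpl, Irf2bp1 and Irf2bp2 were chosen after their values were seen, as were Tbk1, Ikbke, Jak1, Tyk2 and Stat2.

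Of 48 tested interferon-stimulated targets, 46 were lower and 0 higher, beside 10.1% and 7.23% of all tested genes. The median log2 fold change of the list was -0.42. Gbp2 and Gbp6, which code for guanylate-binding proteins, changed by -0.89 ± 0.025 and -0.70 ± 0.029 (SE), Samhd1, which codes for an enzyme that depletes nucleotides, by -0.69 ± 0.024, and the immunity-related GTPase gene Iigp1 by -0.84 ± 0.037, with edgeR adjusted p from 2.62e-17 to 9.60e-14. The targets that did not pass were Oas1a at -0.43 and Ciita at 0.37 (edgeR adjusted p = 0.136 and 0.266). Both were under 4 CPM in every group mean, a level at which other targets were called lower. The KO-labelled values of Ciita lay wholly above the WT-labelled ones. This list was drawn up with the fall of such genes in these libraries known and is not independent evidence of it.

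**Figure D4:**
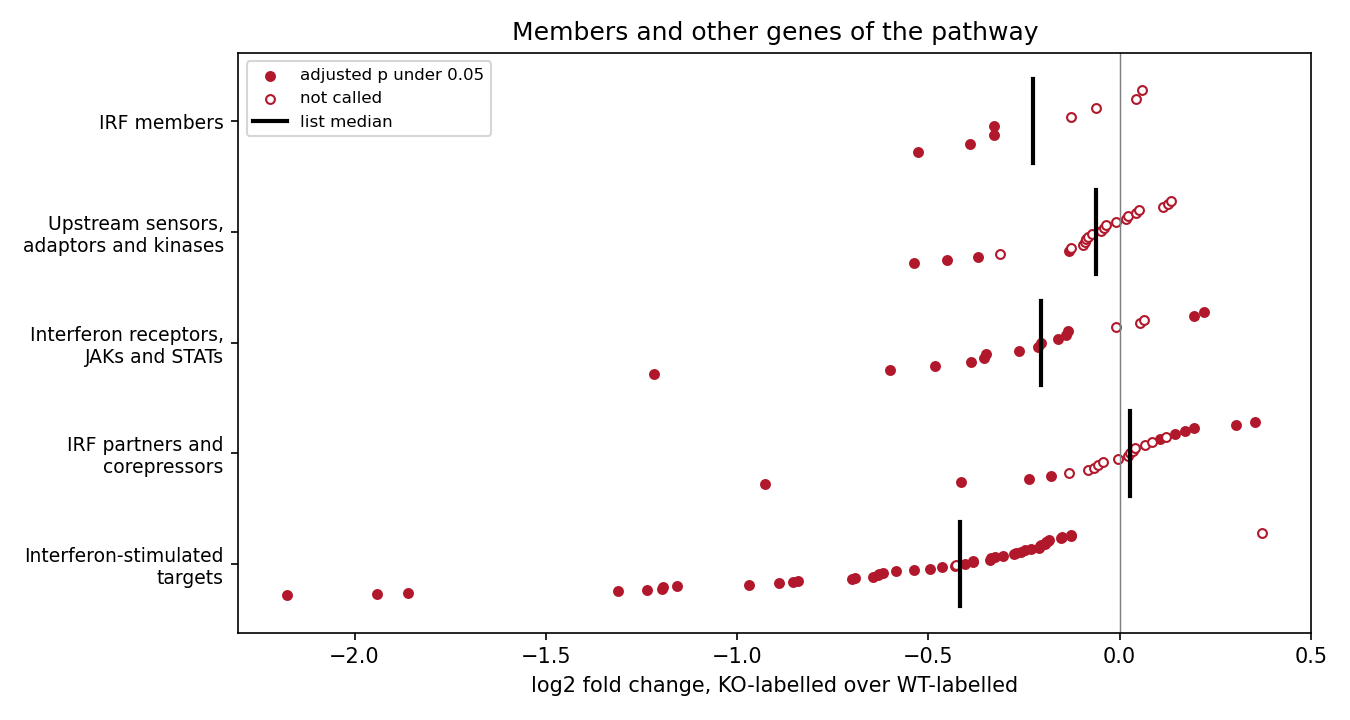
Each point is a tested gene at its log2 fold change, KO-labelled over WT-labelled, in 5 lists by role, filled where the edgeR adjusted p was under 0.05, and the black bar is the list's median. The medians are -0.23 for the members, -0.061 for upstream genes, -0.21 for receptors, JAKs and STATs, 0.027 for partners and -0.42 for targets.

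For each called member, the 3 genes of most similar pattern were taken by the root mean square difference of log2 CPM, centred on each gene's mean over the 6 libraries, among 8430 candidates of at least 10 CPM. The 6 libraries fall into 2 labels, so likeness includes the difference between labels, and it is given as a description. Irf7 was nearest to Igtp, Gimap4 and Parp12, with differences of 0.024, 0.028 and 0.031 log2 units. Irf1 was nearest to Plk3, Plcg2 and Nlrc5, at 0.020, 0.020 and 0.021. Irf9 was nearest to Il12rb1, Rnf145 and Scd1, at 0.019, 0.023 and 0.027. Irf4 was nearest to Zfp395, Trim30a and Syne3, at 0.0092, 0.026 and 0.028.

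IRFs are also expressed by other spleen cells, so markers of those cells were read beside them. The 8 B cell markers summed to between 6.78 and 8.74 CPM in KO-labelled and between 9.17 and 9.90 CPM in WT-labelled libraries, with Cd79b and Blk the most abundant. Blk, which is also on the γδ T cell list, had 1.39 CPM in KO-labelled and 3.10 CPM in WT-labelled libraries and was called lower (edgeR adjusted p = 0.00133), while Cd79b, at 5.24 CPM in KO-labelled and 5.65 CPM in WT-labelled libraries, did not pass (adjusted p = 0.693). Ms4a1 (CD20) had 3 to 13 counts in KO-labelled and 2 to 4 in WT-labelled libraries. Irf8 had at least 8525 counts in every KO-labelled and at least 8226 in every WT-labelled library. The 8 monocyte and macrophage markers with a row gave 6.45 to 7.54 CPM in KO-labelled and 8.12 to 10.9 CPM in WT-labelled libraries, led by Cd68 and Ly6c1. Cd68 was called lower, at a log2 fold change of -0.43, and Ly6c1 did not pass (edgeR adjusted p = 0.0179 and 0.320). Csf1r had 0 counts in every KO-labelled library and 0 to 4 in WT-labelled ones, and Adgre1 at most 1 count in any library.

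The 6 conventional dendritic cell markers with a row summed to between 7.62 and 9.29 CPM in KO-labelled and between 15.9 and 16.7 CPM in WT-labelled libraries. Batf3 and Itgax, which T cells also express, made up most of that sum, and both were called lower, at -0.93 and -1.62 (edgeR adjusted p = 8.81e-06 and 4.72e-07). Xcr1, with 37, 15 and 29 counts in KO-labelled and 18, 1 and 11 in WT-labelled libraries, and Zbtb46, with 28 to 30 counts in KO-labelled and 13 to 31 in WT-labelled ones, had positive log2 fold changes of 1.43 and 0.40 and did not pass (adjusted p = 0.0834 and 0.555). Flt3 had at most 8 counts in a KO-labelled and 1 in a WT-labelled library. The 5 plasmacytoid dendritic cell markers with a row gave 104.0 to 112.4 CPM in KO-labelled and 126.1 to 128.9 CPM in WT-labelled libraries, led by Bst2 and Ptprs. Bst2, itself an interferon target on the list above, stood at 64.2 CPM in KO-labelled and 83.7 CPM in WT-labelled libraries. It was called lower, at a log2 fold change of -0.38 (edgeR adjusted p = 3.56e-06). Ptprs at 0.11 and Tcf4 at -0.17 did not pass (adjusted p = 0.200 and 0.304), and Ccr9 had at most 5 counts in any library. The 5 plasma cell markers gave 185.5 to 192.4 CPM in KO-labelled and 184.1 to 187.4 CPM in WT-labelled libraries, nearly all from Xbp1 and Prdm1, with Jchain at 0 or 1 count. Prdm1 was called lower, at -0.42, and Xbp1 did not pass (edgeR adjusted p = 0.00396 and 0.350). Of neutrophil markers, S100a8 had 0 counts in KO-labelled and 0 to 2 in WT-labelled libraries, and Mmp9 at most 5 in any.

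Of 4 natural killer cell markers, Eomes was called higher at 0.70 and Ncr1 lower at -0.93 (edgeR adjusted p = 6.78e-16 and 0.0398), while Nkg7 and Klrb1c did not pass (adjusted p = 0.713 and 0.506). The 4 natural killer cell markers summed to between 1142 and 1181 CPM in KO-labelled and between 957.3 and 976.0 CPM in WT-labelled libraries, led by Nkg7 and Eomes, which γδ T cells also express. Of αβ T cell markers, the receptor genes Trac, Trbc1 and Trbc2 had no row, which left Cd4, Cd8a and Cd8b1. Cd8a stood at 86.9 CPM in KO-labelled and 66.0 CPM in WT-labelled libraries (called higher, edgeR adjusted p = 7.51e-08). Cd8b1 stood at 17.8 CPM in KO-labelled and 18.1 CPM in WT-labelled libraries, while Cd4 had 12 to 19 counts in KO-labelled and 10 to 26 in WT-labelled libraries. Neither Cd8b1 nor Cd4 passed (edgeR adjusted p = 0.884 and 0.851). The 6 genes of the γδ T cell list with a row summed to between 20.7 and 21.2 CPM in KO-labelled and between 32.8 and 33.5 CPM in WT-labelled libraries, with Scart2 and Blk called lower and Scart1 higher. The most abundant were Scart1, at 10.5 CPM in KO-labelled and 7.48 CPM in WT-labelled libraries, and Scart2, at 4.22 CPM in KO-labelled and 16.4 CPM in WT-labelled libraries. The part of these differences between labels in the falls of the IRF genes was not tested.

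In the GENCODE M21 annotation, exons of 5 members share bases with another gene, and the use of strand in counting is not given. Irf7 shares 45 bp with Phrf1, Irf3 88 bp with Bcl2l12, Irf5 411 bp with Tnpo3 and Irf1 135 bp with Gm17334, each on the opposite strand, and Irf9 shares 123 bp with Rnf31 on its own strand. The counts of these stretches cannot be told apart. Phrf1 and Rnf31, next to the called members Irf7 and Irf9, did not pass, with log2 fold changes of 0.041 ± 0.032 and -0.041 ± 0.054 (SE; edgeR adjusted p = 0.444 and 0.678). Gm17334, next to the called member Irf1, had no row, so its change is not known.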

How the data were processed

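Per the labels' protocols, sorted cells gave total RNA by TRIzol extraction, and libraries by a VAHTS Universal V6 kit. The submitters' processing notes name fastp, HISAT2, HTSeq and the build GRCm39, without versions, settings or annotation. The authors deposited whole-number gene counts without normalization and FPKM values, which equal the deposited counts over the column total and a fixed length in 19390 of 19390 genes (tolerance 0.01 bp).

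The test was edgeR 4.0.16 (R 4.3.3) on the counts, with TMM scaling, filterByExpr (12810 genes kept, 0.0366% of counts removed), glmQLFit and glmQLFTest on the label, Benjamini-Hochberg over all tested genes. SE is the size of the log2 fold change divided by the root of the F statistic, and intervals are 95% intervals of that fit. CPM are counts over the TMM-scaled library size. DESeq2 1.42.0 and limma 3.58.1 were alternatives. The members, lists and tests were chosen with earlier results of these data known. From each pathway list up to 4 called genes of smallest p are named, and from each marker list the 2 most abundant; some genes that this rule names are not reported here. Promoter sequences are from RefSeq, GRCm38.p6, where all 8 members matched by symbol.

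Pairs of libraries with a shared label differed beyond sampling noise (chi-square per degree of freedom 3.22 to 6.94). Each library was counted as 1 replicate. That count is an assumption, because spread beyond sampling noise cannot tell different mice from repeated libraries of the same cells. In simulated KO and WT counts where 200 genes were changed, the steps recovered 66.7% of 1.2-fold, 68.7% of 1.5-fold and 88.9% of 2-fold changes, in a run over 12685 genes, and 3.90% of the calls made were false. The simulated spread came from the fit to these data, and far fewer genes were changed than the 2219 called here. These shares therefore hold for that setting only.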

Additional observations from a re-analysis of the deposited data

How the results depend on the processing

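Irf1, Irf4, Irf7 and Irf9 stayed lower and called under all 17 alternatives run for each (scaling by RLE, by upper quartile or by totals, DESeq2, limma-voom, limma-trend on FPKM with pseudocounts of 0.1 and 1, 2 other filters, a robust fit, the replicate block and each library left out), with log2 fold changes from -0.41 to -0.37 for Irf1, -0.36 to -0.28 for Irf4, -0.55 to -0.49 for Irf7 and -0.37 to -0.30 for Irf9. Irf3 and Irf8 stayed uncalled and positive. Irf2 was called at a log2 fold change of -0.13 by limma-voom (adjusted p = 0.0466), without a filter (0.0273), with at least 1 CPM in at least 3 libraries (0.0459) and by the robust fit (0.0302), and its values with a library left out ran from -0.17 to -0.099. Irf5 ran from -0.12 to 0.014 with a library left out and turned positive without KO replicate 2 (0.014) and without WT replicate 3 (0.0051), uncalled in both. Leaving out a library gave 4 or 5 lower members. At an adjusted p under 0.01, 4 members stayed lower, and of all genes 863 were lower instead of 1293 and 520 higher instead of 926, fewer by construction of the stricter threshold. With GENCODE exon lengths, chosen after the data were seen, 3 of 8 members kept their rank of level in KO-labelled and 4 of 8 in WT-labelled libraries, since the lengths differ.

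Replicate numbers share only a number: deviations of same-numbered KO-labelled and WT-labelled libraries correlated at 0.055, -0.022 and -0.039 across genes. With the replicate block, 4 members were lower, 1177 of all genes lower and 792 higher, and Irf2 had an adjusted p of 0.0524.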
